A study of Mus musculus with 6 samples.

Results

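The Kv1, Kv3 and Kv4 potassium channel genes Kcna1, Kcna2, Kcna4, Kcnc1, Kcnc2, Kcnd2 and Kcnd3, together with Kcnip4, which encodes a Kv4 partner protein, were followed in transcript catalogues of the mouse nucleus accumbens. These 8 genes, of 15939 listed in the series, were found by their Ensembl identifiers. The samples were nucleus accumbens tissue of C57BL/6N mice from 2 groups, saline injection and morphine injection, each trained in conditioned place preference, a test in which an animal learns to associate a place with an injection. There were 3 samples per group, numbered 1 to 3 for saline and 4 to 6 for morphine; the design text gives 6 mice per group, does not say how mice were pooled into samples and gives no age or dose. Nothing in the labels ties a sample to separate animals, so p-values measure the spread between samples only. Each library came as a catalogue of events in its assembled transcripts: first exons, last exons, skipped exons, retained introns and alternative exon ends. The values given are counts of such events, or the libraries in which an event is listed, and none is an expression level. An unlisted event was not recorded in that catalogue, which does not show that the transcript was absent, and the read depth is unknown.

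Voltage-gated potassium channels open when a neuron depolarizes and let potassium out, which ends the action potential and sets how readily the next one follows. A channel is built of pore subunits of the same family. Kv1 channels hold back firing at the axon, and in medium spiny neurons of the striatum they delay the first spike; Kv3 channels switch fast enough for the short spikes of fast-spiking interneurons; Kv4 channels carry the rapidly inactivating A-type current of dendrites. KChIP proteins bind Kv4 channels, sense calcium and change how many channels reach the surface and how they inactivate.

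The sequences that follow are those of the coding exons on which the listings turn, read from GENCODE M21 transcripts on GRCm38. The first is the Kcnd3 exon at chr3:105666962-105667018 (plus strand, in Kcnd3-203), in capitals between 30 bases of each neighbouring exon, shown because every library listed it as skipped in some transcripts and included in others. It has 57 bases, a multiple of 3, and its skipping leaves the reading frame as it is.
Kcnd3 57-base exon: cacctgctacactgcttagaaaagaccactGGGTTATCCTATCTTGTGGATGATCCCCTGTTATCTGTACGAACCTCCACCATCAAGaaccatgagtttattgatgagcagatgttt
The second is the Kcnc2 exon at chr10:112456929-112457032 (plus strand, in Kcnc2-203), in capitals with 30 bases on each side, shown as the other annotated exon with alternative use. It has 104 bases, which leaves 2 over a multiple of 3, and in Kcnc2-203 the annotated coding sequence ends at 112458606, which is 48 bases before the end of the next exon.
Kcnc2 104-base exon: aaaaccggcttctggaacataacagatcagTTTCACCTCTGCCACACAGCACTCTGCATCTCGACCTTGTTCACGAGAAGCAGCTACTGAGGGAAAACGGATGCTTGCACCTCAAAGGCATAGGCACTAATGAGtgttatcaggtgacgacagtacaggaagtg
The third gives, in capitals, the 62 coding bases of the last exon of Kcnc1-203, chr7:46437272-46437333 (plus strand), after 30 bases of the exon before it. It is shown because a second start of this exon separated the groups.
Kcnc1 last coding exon: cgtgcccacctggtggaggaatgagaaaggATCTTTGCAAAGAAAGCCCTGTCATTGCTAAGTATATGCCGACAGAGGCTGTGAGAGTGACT
The next pair is the coding parts of the Kcnip4 first exons that all 6 libraries listed, chr5:48599423-48599534 in Kcnip4-204 and chr5:48889366-48889465 in Kcnip4-208 (minus strand), with the start codon in capitals. They give KChIP4 proteins different beginnings of 112 and 100 coding bases before the shared part.
Kcnip4 nearer first exon: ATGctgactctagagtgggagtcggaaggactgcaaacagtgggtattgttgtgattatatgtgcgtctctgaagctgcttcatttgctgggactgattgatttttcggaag
Kcnip4 farther first exon: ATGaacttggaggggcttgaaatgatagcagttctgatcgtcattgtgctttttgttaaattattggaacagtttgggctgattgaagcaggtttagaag
The last is the annotated internal exon of Kcnip4-201, chr5:48509659-48509760 (minus strand), followed by 30 bases of the next exon, whose first 4 bases are in capitals. It is shown because the catalogues placed this junction 4 bases away, as described below.
Kcnip4 annotated junction: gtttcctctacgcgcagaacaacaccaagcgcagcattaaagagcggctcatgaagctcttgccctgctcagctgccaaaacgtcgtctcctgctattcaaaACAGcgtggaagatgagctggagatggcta

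The catalogues of the 6 libraries held 54641 to 58007 distinct events, of which the 8 genes had 25 to 29 per library. All 13 markers of medium spiny neurons, the principal cell type of this tissue, were listed in all 6 libraries. Markers of other cells were listed as well, among them 4 of 4 of cortical glutamatergic neurons, 4 of 4 of astrocytes, 3 of 3 of microglia and 1 of 2 of the endothelium, where Cldn5 was listed in 0. Events of the ependyma and choroid plexus markers, 4 of 4 listed in some library, summed to 18 to 25 in saline and 12 to 15 in morphine, and the part of this in the results below was not tested. These sums are event numbers and measure neither how many cells of a type there were nor their RNA. In tissue, cell number and RNA per cell could not be told apart in any case.

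The 8 genes had 58 distinct events over the 6 libraries, where 2 listings of equal type, strand and splice pattern count as the same event. First exons made up 26 of them and last exons 22, against 4 exon skipping, 4 intron retention and 2 alternative exon end events. An event was called annotated when its splice sites, or all its exons, are those of exons of the gene in GENCODE M21, which held for 26 of 58. Of the 58 events, 13 were in all 6 libraries, 8 in 5 and 5 in 2 to 4, while 32 were in 1 library alone, 18 of these in a saline and 14 in a morphine library. Of the 13 steady events 12 were annotated, and of the 32 single ones 28 were not. Over all genes 20.9% of 128790 events were in all 6 libraries, against 22.4% for these genes, and 50.7% were in 1, against 55.2%. Retained introns were 19.4% of events over all genes and 6.9% here, and annotated events 63.4% and 44.8%. These shares come from 8 genes and their differences from other genes were not tested.

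**Figure D1:**
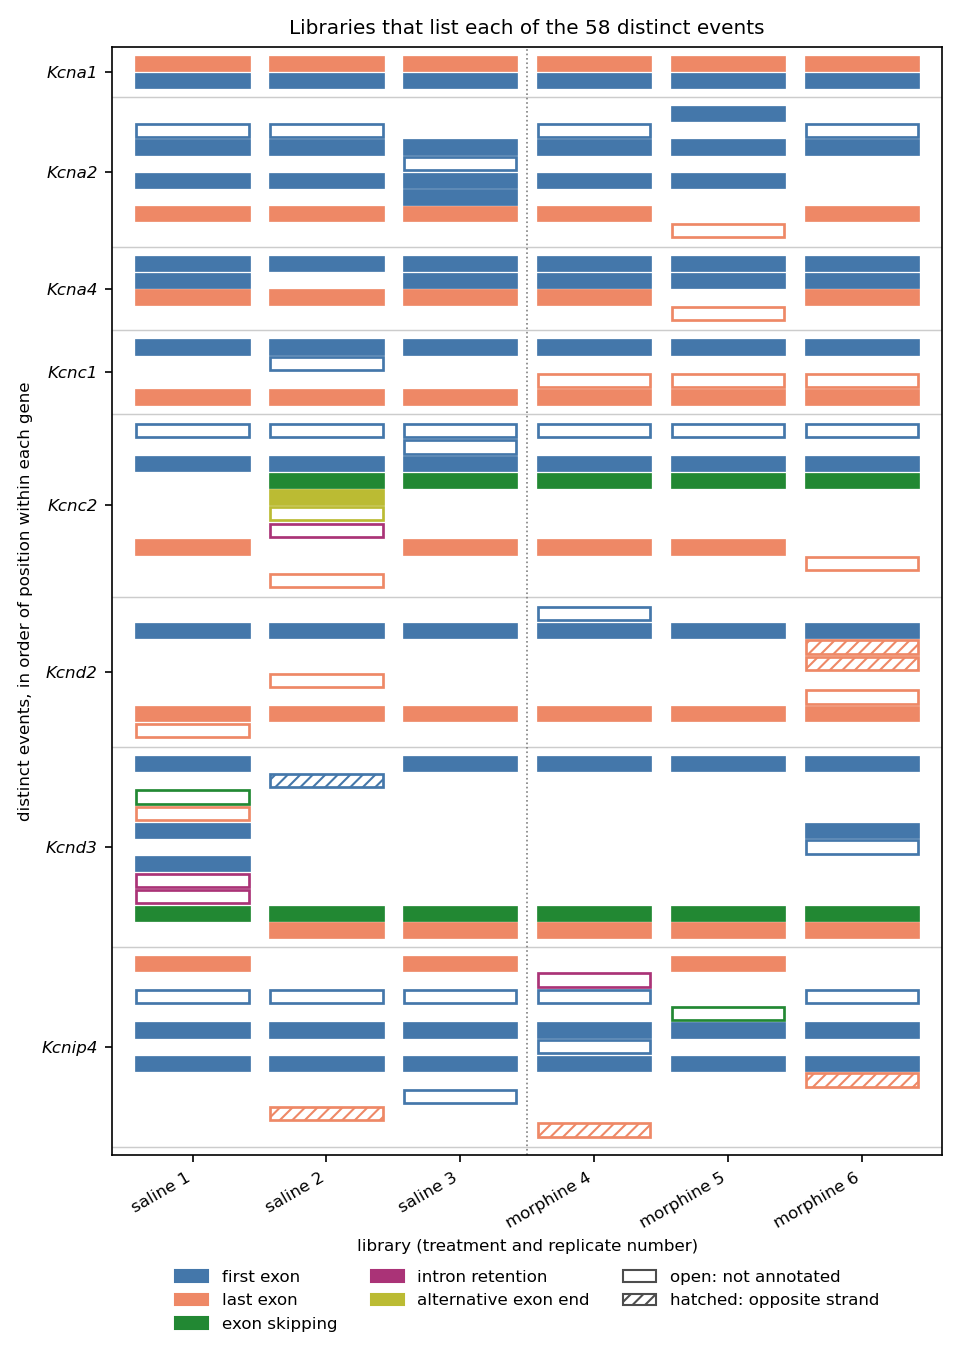
Map of the 58 distinct events (rows, ordered by chromosome position within each gene) over the 6 libraries (columns), where a box means that the library lists the event, colour gives its class, open boxes are not annotated and hatched ones lie on the opposite strand. Boxes filling a whole row are the 13 events in all 6 libraries. The open Kcnc1 last-exon boxes stand under the 3 morphine libraries and no saline library. Another open Kcnc1 box, a first exon, stands under saline replicate 2 alone.

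Kcna1 (ENSMUSG00000047976, chr6:126640397-126646384) encodes Kv1.1, a low-threshold channel subunit of axons. It had 2 events in each of the 6 libraries, 1 first exon and 1 last exon. Their ends were the same in every library: the first exon ran from 126645801 down to 126644256 of chromosome 6 (minus strand), and the last exon from 126643886 to 126636463. That last exon spans 7424 bases, holds the whole coding region (126641871 to 126643355) and passes the end of the gene in GENCODE M21 by 3934 bases. Both outer ends are those of the gene in the RefSeq table for GRCm38.p6 (126636463 and 126645801). Identical counts in all 6 libraries were not rare, since 22.8% of the 15040 genes tested had them.

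Kcna2 (ENSMUSG00000040724, chr3:107101146-107115005), which encodes Kv1.2, had 4, 4 and 5 events in saline and 4, 4 and 3 in morphine. The groups overlapped at 4. All of its coding bases are in 1 exon, and 6 of its 8 distinct events were first exons that lie outside the coding region. The first exon ending at 107101759 of chromosome 3 (exon 1 of Kcna2-201) was listed in all 6 libraries, and that ending at 107102756 (exon 1 of Kcna2-202) in all except morphine replicate 6. A first exon ending at 107101106, which no annotated exon shares, was in saline replicates 1 and 2 and morphine replicates 4 and 6, with 4 different starts between 107100734 and 107100951. The last exon with the coding region, from 107103945 to 107106879, was in 5 libraries. Morphine replicate 5 listed in its place a last exon from 107107106 to 107114998, which lies wholly after the coding region, inside the annotated last exon of Kcna2-201 (107103945 to 107115005).

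Kcna4 (ENSMUSG00000042604, chr2:107290639-107298502) encodes Kv1.4, the Kv1 subunit that inactivates rapidly. It had 3, 2 and 3 events in saline and 3, 3 and 3 in morphine, and the groups overlapped at 3. Its first exon ending at 107291071 of chromosome 2 (exon 1 of Kcna4-201) was in all 6 libraries and that ending at 107291435 (exon 1 of Kcna4-202) in all except saline replicate 2. As for Kcna2, morphine replicate 5 lacked the coding last exon, here from 107294144 to 107298502, and listed another one from 107313457 to 107329044. This exon begins 15.0 kb after the annotated end of the gene.

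Kcnc1 (ENSMUSG00000058975, chr7:46396497-46438704) encodes Kv3.1, a subunit of fast-spiking neurons. It had 2, 3 and 2 events in saline and 3, 3 and 3 in morphine. The groups overlapped at 3, which saline replicate 2 reached through a first exon ending at 46398329 of chromosome 7 that it alone listed. By class the last exons stood apart, with 1 in every saline library and 2 in all those of morphine. The annotated last exon from 46437272 to 46438375, whose coding start is printed above, was in all 6 libraries. A longer form from 46437014 to 46438375, which is not annotated and begins 258 bases earlier inside the 1925-base intron, was in morphine replicates 4, 5 and 6 and in 0 saline libraries. The added 258 bases are a multiple of 3. Their sequence was not read, so whether they hold a stop codon is unknown. The longer form was the single event of the 8 genes listed in every library of 1 group and in 0 of the other. Over all genes 0.321% of events were in all 3 morphine and 0 saline libraries and 0.345% the other way round. The exact two-sided permutation p for Kcnc1 last exons was 0.1 (n = 3 per group), the smallest that 3 against 3 can give, with an adjusted p of 1 over the 16 pairs of gene and class that varied. The other annotated end of Kcnc1, the exon of Kcnc1-201 from 46427346 to 46433354, was listed as a last exon in 0 libraries.

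Kcnc2 (ENSMUSG00000035681, chr10:112271121-112467024), which encodes Kv3.2, had 3, 7 and 5 events in saline and 4, 4 and 4 in morphine. The saline libraries lay on both sides of the morphine ones. The first exon ending at 112271167 of chromosome 10 (exon 1 of Kcnc2-201) was in all 6 libraries. So was another ending at 112270548, upstream of the annotated gene, with starts between 112269153 and 112269928; it was the only event of the 8 genes listed in all 6 libraries that is not annotated. Skipping of the 104-base exon printed above was listed in saline replicates 2 and 3 and in all 3 morphine libraries, and not in saline replicate 1. The 3 last exons each took the place of the others: the annotated one from 112463117 was in saline replicates 1 and 3 and morphine replicates 4 and 5, one from 112465133 in saline replicate 2 and one from 112463991 in morphine replicate 6. The high count of saline replicate 2 included a retained intron and 2 alternative exon ends around the exon from 112458490 to 112464085, which it alone listed.

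Kcnd2 (ENSMUSG00000060882, chr6:21215503-21729805) encodes Kv4.2, a main subunit of the A-type current. It had 3, 3 and 2 events in saline and 3, 2 and 5 in morphine. The groups overlapped, and morphine replicate 6 was highest. The exons at both annotated ends, the first ending at 21217413 of chromosome 6 and the last beginning at 21727165, were in all 6 libraries, and each of the other 6 events was in 1 library. Near 21413158, within the gene, saline replicate 2 and morphine replicate 6 each listed an unannotated last exon, beginning at 21413158 and 21413211 and ending at 21422738 and 21422744, which counted as different events though they begin within 53 bases of each other. Morphine replicate 6 also listed 2 last exons on the opposite strand, both reaching 21237595.

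Kcnd3 (ENSMUSG00000040896, chr3:105452330-105674002) encodes Kv4.3, the other Kv4 subunit among the 8 genes. It had 8, 3 and 3 events in saline and 3, 3 and 5 in morphine, so the 2 highest libraries were in different groups. Alternative use of the 57-base exon was the 1 skipping event of these genes in all 6 libraries, and each catalogue thus recorded forms with and without it. This exon separates the long and the short form of Kv4.3. The first exon ending at 105452717 of chromosome 3 was in 5 libraries. In saline replicate 2 the only listed first exon was on the opposite strand, from 105452620 to 105452553, inside that same exon. The 8 events of saline replicate 1 included 2 codes for 1 retained block from 105665546 to 105668080, which contains the 57-base exon and both introns beside it, and a short unannotated last exon ending at 105458424 in place of the annotated one beginning at 105669008, which the other 5 libraries listed.

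Kcnip4 (ENSMUSG00000029088, chr5:48389502-49524907) encodes KChIP4, a calcium sensor whose forms differ in the amino terminus; 1 of these forms is known for slowing Kv4 inactivation. It had 4, 4 and 5 events in saline and 6, 4 and 4 in morphine, and the groups overlapped, with 4 events in 2 libraries of each. The gene covers 1135 kb of chromosome 5 (48389502 to 49524907, minus strand), and its 8 annotated transcripts begin at first exons with 7 different splice sites. Of these 7, 2 were listed, both in all 6 libraries: 48599423, which lies 117 kb before the next exon, and 48889366, 407 kb before it. The other 5, with the farthest at 49524641, were listed in 0 libraries as first exons. Another first exon, with its splice site at 48509655, was in all libraries except morphine replicate 5 and is not annotated. It was 107 and 118 bases long in saline replicates 3 and 2 and 2099 bases in saline replicate 1 and 2101 and 2073 in morphine replicates 4 and 6. Its site lies 4 bases beyond the annotated internal exon ending at 48509659. Morphine replicate 5 listed this exon, from 48509760 to 48509655, as skipped between 48599423 and 48482651, and in this form with the exon the next exon also begins 4 bases after its annotated boundary at 48482655, which the form without the exon uses. The 2 shifts are equal, so the length of the joined exons is the annotated one.

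**Figure D2:**
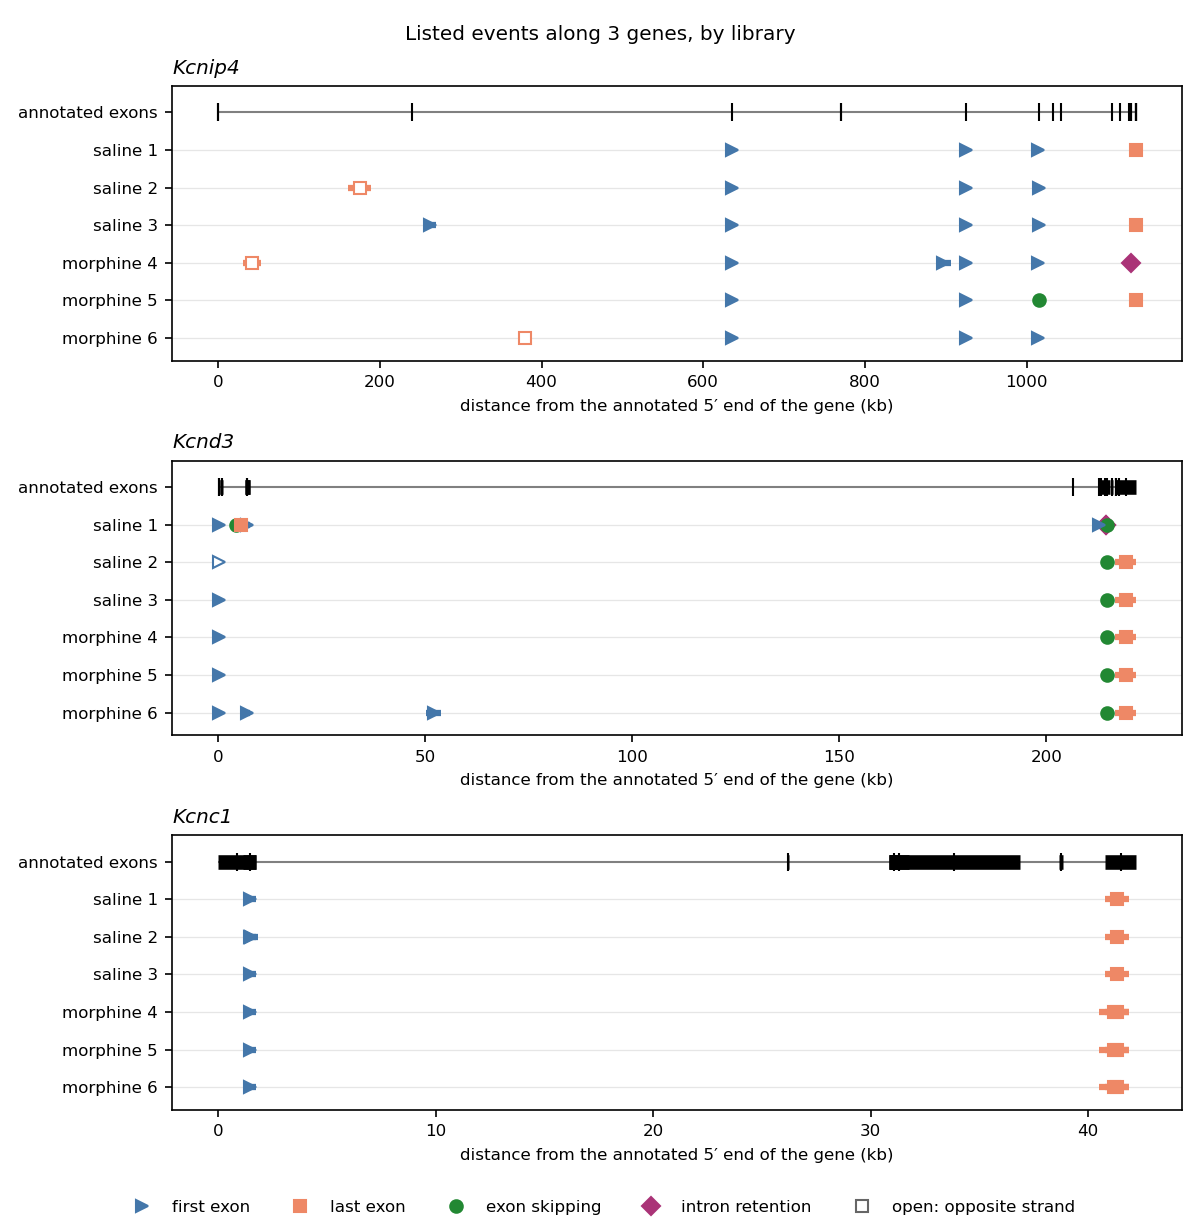
Listed events of Kcnip4, Kcnd3 and Kcnc1 by distance from the annotated 5′ end of the gene in kb (horizontal axis) for each library (rows), with annotated exons on top; marker shape and colour give the class and open markers lie on the opposite strand. Both annotated Kcnip4 first exons and the Kcnd3 skipped exon recur in every row, and Kcnc1 has the wider last-exon mark in the 3 morphine rows, where the longer form begins 258 bases earlier.

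The last exon of Kcnip4 was listed at different places. Saline replicates 1 and 3 and morphine replicate 5 listed the annotated last exon, which begins at 48390956. Saline replicate 2 and morphine replicates 4 and 6 each listed in its place a single last exon on the opposite strand, at 3 different sites between 49142809 and 49494103. A last exon opposite to the gene was listed in 2.66% of all 85519 pairs of gene and library, and in 4 of the 48 pairs of the 8 genes. Where 1 was listed, the lack of a last exon on the strand of the gene was a property of the catalogues as a whole. Of the 2279 pairs with a last exon opposite to the gene, 98.2% listed no last exon on the strand of the gene. For first exons there were 1658 such pairs, of which 92.5% listed none on the strand of the gene. Among the 8 genes this held for 3 of 4 such pairs of last exons and for the 1 pair of first exons, in Kcnd3. In 42 of the 48 pairs of gene and library the 8 genes had exactly 1 last exon, and 87.8% of all pairs did.

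The comparison of morphine with saline addresses whether the number of distinct events of these genes differs after morphine conditioning. It does not show which events they are. Kcna4 had the same number of last exons in every library, but that of morphine replicate 5 was a different exon. Equal numbers therefore do not show equal transcript structure. Of the 8 genes, 0 had groups that did not overlap, against 3.07% of the 15040 genes tested (1.64% with morphine above and 1.43% with saline above). The exact two-sided permutation p-values, with 3 libraries per group, were 0.4 for Kcnc1, 0.6 for Kcna2, 0.7 for Kcnc2, 0.9 for Kcnd2 and 1 for Kcna1, Kcna4, Kcnd3 and Kcnip4. Limma on log2(events + 0.5) over all 15040 genes, with Benjamini-Hochberg adjustment and a threshold of 0.05, called 0 of the 8, against 0.638% of all genes (0.199% with morphine above and 0.439% with saline above), and 0 had an unadjusted p under 0.05, against 3.19%. The largest log2 ratio of morphine over saline was 0.32 ± 0.15 (SE) for Kcnc1 and the lowest -0.22 ± 0.30 for Kcnc2, followed by -0.22 ± 0.15 for Kcna2; their adjusted p-values were 0.905, 1 and 0.905. The mean of Kcnc2 was 1 event lower in morphine than in saline, and without saline replicate 2 this difference was 0. Kcnd2 had 0.22 ± 0.35, Kcnd3 -0.21 ± 0.45, Kcna4 0.16 ± 0.15, Kcnip4 0.08 ± 0.19 and Kcna1 0. The median over the 8 was 0.04, and over all genes tested it was 0. Together the 8 genes had 29, 28 and 27 events in saline and 28, 25 and 29 in morphine, or 28 ± 1 and 27.3 ± 2.08 (SD, n = 3), and no test was made of this sum. Without saline replicate 2 the Kcnc1 groups no longer overlapped, at 2 and 2 against 3, 3 and 3. Without saline replicate 1 the same held for Kcnc2, at 7 and 5 against 4, 4 and 4. In both cases the library left out was the one that made the groups overlap. The share of all genes that separate with 2 against 3 libraries was not computed.

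**Figure D3:**
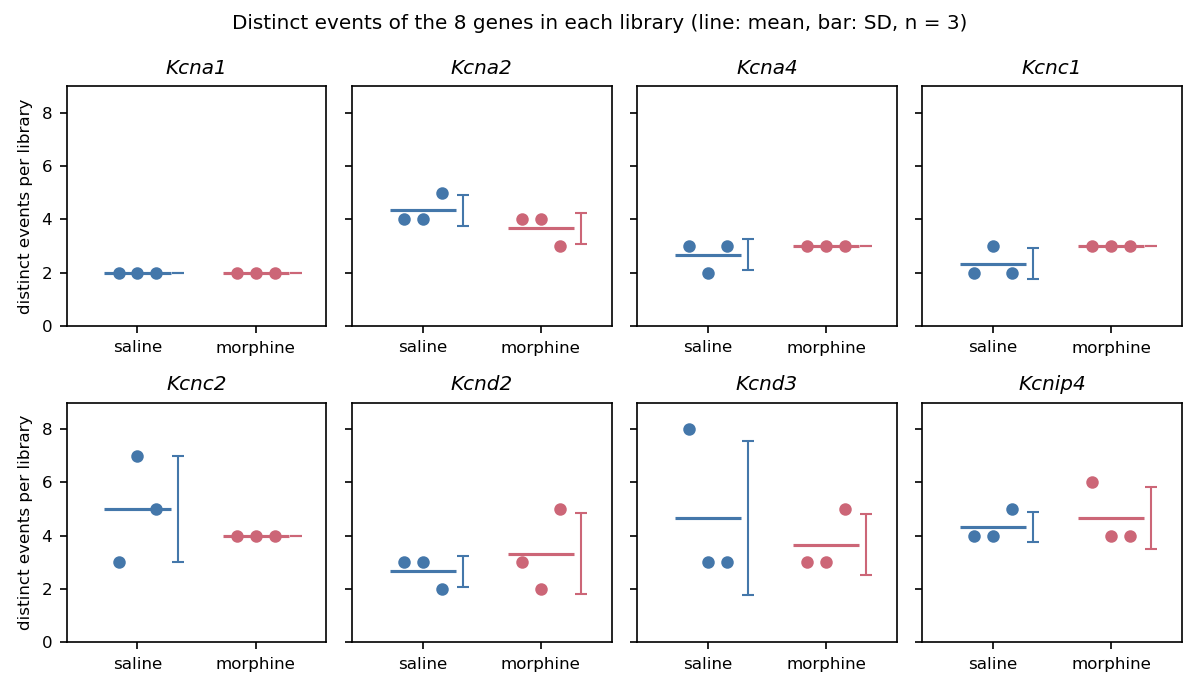
Distinct events of each gene (vertical axis, events per library) in the 3 saline and 3 morphine libraries, with the mean as a line and the SD as a bar. Every gene has at least 1 saline point level with or beyond a morphine point, and the widest spread is that of Kcnd3 in saline, from 3 to 8.

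The genes can be ordered by their mean over the 6 libraries, although event numbers of different genes also depend on their exons. Kcnip4 and Kcnc2 had 4.5 ± 0.837 and 4.5 ± 1.38 events (SD, n = 6), Kcnd3 4.17 ± 2.04, Kcna2 4 ± 0.632, Kcnd2 3 ± 1.1, Kcna4 2.83 ± 0.408, Kcnc1 2.67 ± 0.516 and Kcna1 2 in each library. Neighbours from Kcnip4 to Kcna2 and from Kcnd2 to Kcnc1 differed by less than these SDs. Kcnip4 is the longest of the 8 genes and Kcna1 the shortest, with 5.99 kb.

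The wider family was described with a list of 43 genes, the other pore, silent and beta subunits, the KChIP and DPP partners of Kv4 and the proteins that hold Kv1 channels at the axon. Outside the 8 genes it had 35, of which 31 were tested and Kcna7, Kcna10, Kcnf1 and Kcnv2 were listed in 0 libraries. Among the 31, 1 gene had more events in every morphine library (1.64% of all genes tested) and 0 had more in every saline library (1.43%). In either direction the share over all genes was 3.07%, and 1 of 31 is close to it. Limma called the same 1, against 0.638% of all genes. The median log2 ratio of the 31 genes was 0, and 4 of them had the same count in all 6 libraries. The gene apart was Kcnip1, which encodes KChIP1, with 3 events in every saline library and 4 in all those of morphine (log2 ratio 0.36; limma adjusted p = 5.15e-05; exact permutation p = 0.1, n = 3). That adjusted p rests on counts that do not vary within either group, as did 87 of the 96 limma calls. Its event of the morphine libraries alone was an unannotated last exon with its splice site at 33718265 of chromosome 11 (minus strand), reaching 33711000 to 33717274, within the gene. The annotated last exon from 33629790 to 33630598 was in all libraries except morphine replicate 4. That library reached 4 events through a first exon between 33680463 and 33689027 that it alone listed, so the equal morphine counts hold different events. The first exon at 33843130 and skipping of the 33-base exon from 33651540 to 33651572 were in all 6 libraries. With annotated events alone, 0 of the 31 genes stood apart.

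In the families described here, the gene with the most events had groups that overlapped. The silent subunit gene Kcng2 averaged 3.33 ± 1.53 events under saline against 3.67 ± 0.577 under morphine, and the beta subunit gene Kcnab2 5.33 ± 0.577 and 6.33 ± 1.15. Kcnip2, which encodes KChIP2, had 8.67 ± 1.15 in both groups, and the Kv4 partner gene Dpp6 had 4 and 4.33 ± 0.577. Adam22, which encodes a receptor for the Lgi proteins, had the most events of the list, with 24 ± 1.73 and 23 ± 7.94 (SD, n = 3 each).

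**Figure D4:**
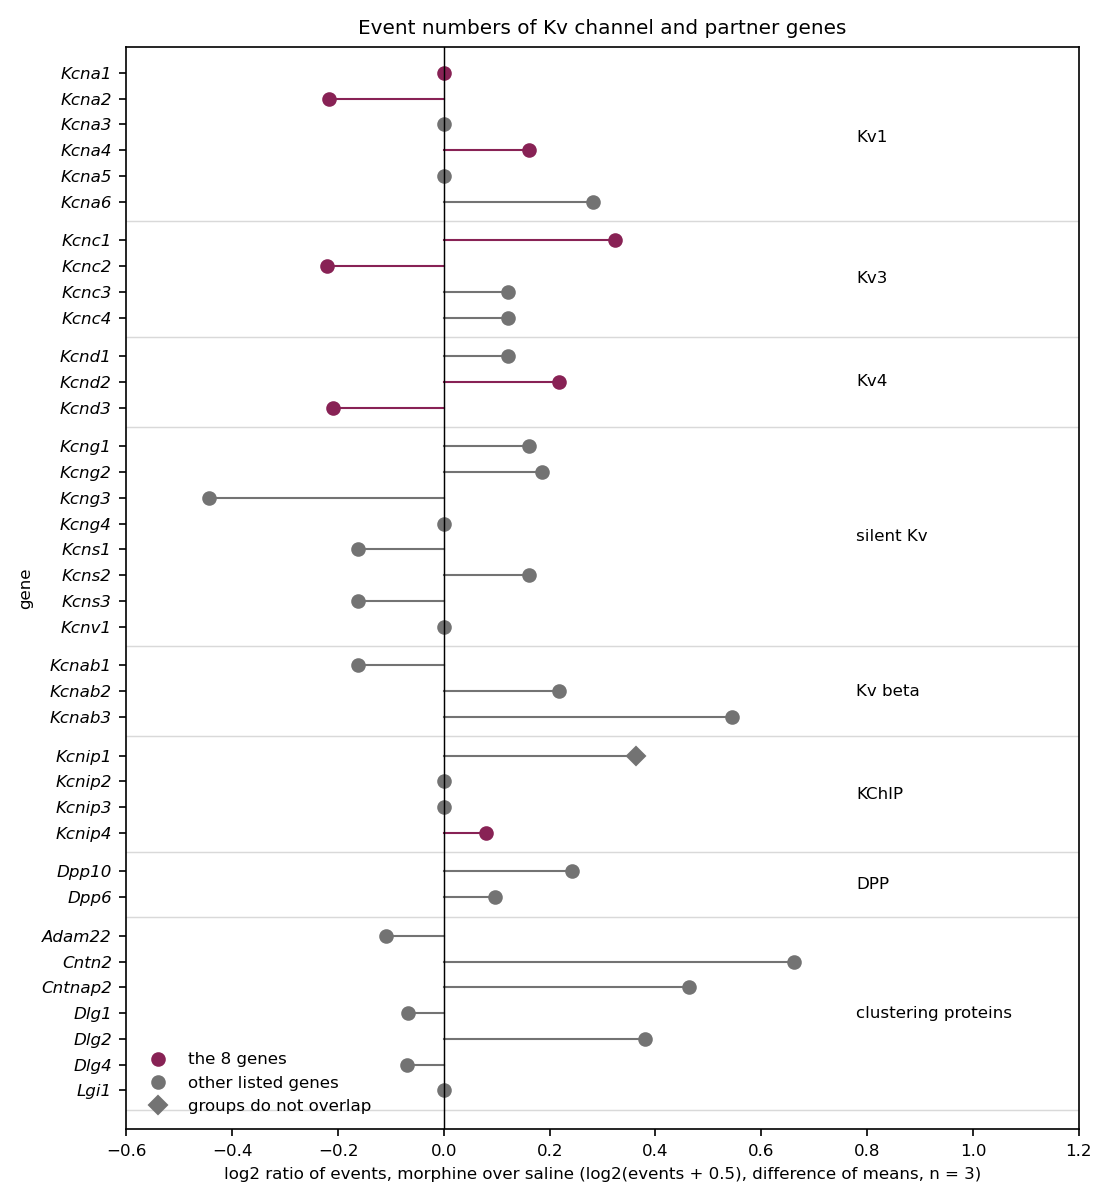
Log2 ratio of events, morphine over saline, for tested genes of the list by family (horizontal axis, difference of mean log2(events + 0.5), n = 3 per group), with the 8 genes in purple. The single diamond, Kcnip1 at 0.36, marks groups that do not overlap, and the 8 genes lie between -0.22 and 0.32.

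Over the 6 libraries, the genes whose log2 events followed the sum of the 8 genes most closely were Mccc1 (Pearson r = 0.99), Fam149b (0.97) and Dlx6 (0.97), the highest of the 3033 genes whose mean was 5 events or more. All points share the same 6 libraries and their depth, and the sum varied only from 25 to 29, with its low point in morphine replicate 5.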

How the data were processed

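RNA of 6 nucleus accumbens samples was extracted with Trizol and sequenced on an Illumina platform, per the labels' protocols and the design text. The deposited file of each library lists events with a type code (20 codes), an Ensembl gene ID, chromosome positions and a splice pattern. For assembler, event caller and genome build, the sources used here name none; read depth is unknown. The deposited column named fpkm has only whole numbers from -24 to 0, cannot be an FPKM and was not used. Positions are read on GRCm38.

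Distinct events per gene and library were counted by type, pattern and strand, without the codes ending in OFF, with Python 3.11.15. Symbols were found for 15815 of 15939 gene IDs. Limma 3.58.1 in R 4.3.3 (lmFit, eBayes with trend) was fitted to log2(events + 0.5) of the 15040 genes with a mean of at least 0.5. It was first tested on simulated Poisson counts, which are random draws around the mean of each gene. Such draws vary freely within groups, unlike the counts behind 87 of the 96 limma calls, so that test does not cover those calls. Single values were compared with exact two-sided permutation tests. The 8 genes and all lists were chosen with earlier results of these data known. Named were the 8 genes, list genes apart or called, the gene with the most events per family (1 of these is not reported here), and the 3 genes closest to the summed events; other features were chosen after seeing their values. Alternatives changed pseudocount, filter, scaling, limma variance, the events counted and the libraries kept.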

Additional observations from a re-analysis of the deposited data

How the results depend on the processing

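No paired analysis was possible because the groups share no replicate number. Limma called 0 of the 8 genes in every alternative except leaving out 1 library, where it called 0 to 1: Kcnc1, without saline replicate 2 (adjusted p = 5.18e-06), where its counts were identical within both groups. Calls over all genes numbered 96, 44 with robust eBayes and 250 to 285 with 1 library left out; the cause was not tested. The 8 genes held 0 to 1 with non-overlapping groups when 1 library was left out, and 0 in all other alternatives. The 31 other list genes held 1, against 3 with equal totals (Cntn2, Kcng3, Kcnip1), 0 with annotated events alone and 1 to 3 with 1 library left out. Cntn2 and Kcng3 had counts tied between the groups, which the scaling made unequal without any event changing. Shares of all genes with non-overlapping groups were not computed for these alternatives. The 1 Kcnc1 event of morphine libraries alone is not annotated, so annotated events alone gave 0. Differences of mean events, morphine minus saline, turned from 0.333 to -0.333 for Kcnip4 with first and last exons alone, with annotated events alone and without morphine replicate 4. They turned from -1 for Kcnd3 to 0.333 with annotated events alone and 0.667 without saline replicate 1, and from 0.667 for Kcnd2 to -0.167 without morphine replicate 6. With 1 library left out these differences ranged from -0.333 to 0.667 for Kcnip4, -1.83 to 0.667 for Kcnd3 and -0.167 to 1.33 for Kcnd2. The Kcnc2 difference of -1 was 0 without saline replicate 2, with annotated events alone, with exact-boundary types alone and with retained introns and exon-end events left out, and -2 without saline replicate 1. The summed events differed by -0.667, and by -1.67 to 0.667 over the alternatives. All of these lay within the pooled within-group SD of 1.63 from the value given, though not all within the smaller SD of the saline group. Depth is unknown, so no detection limit was set.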
